A study of Mus musculus with 4 samples.

Results

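The expression of 10 genes that mark macrophages and other leukocytes was examined in old and young muscles: C1qa, C1qb, C1qc, Csf1r, Cd68, Ptprc, Lyz2, Mrc1, Cd163 and Emr1. Their rows were selected by symbol alone, with no threshold on a measured value. All 10 were found among the 20340 gene labels with a value in every sample, each at 1 locus. Untreated C57BL/6 mice were sampled at 20 months (Old) and 3 months (Young), giving the samples Old 1 and Old 2 and the samples Young 1 and Young 2. The labels give the tissue as muscle, and the study's methods name the tibialis anterior (TA), which lies beside the shin bone. mRNA-seq values were deposited as FPKM, which are sequenced fragments scaled by transcript length and by the mapped fragments of a sample. The design text speaks of triplicates while 2 samples per age were analysed here, and although the study's text speaks of independent experiments and of independent mice in its animal groups, neither it nor the labels ties each sample to a mouse. The p-values below therefore measure only the spread between these samples.

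Macrophages live between the fibres of healthy muscle, where they clear dying cells and debris and help muscle stem cells to repair damage. C1q, which opens the classical pathway of complement, is built from the chains encoded by C1qa, C1qb and C1qc and is made largely by macrophages. Csf1r is the receptor that keeps macrophages alive, Mrc1 (CD206) and Cd163 are scavenger receptors of tissue-resident macrophages, and Emr1 encodes the F4/80 antigen. Cd68 encodes a lysosomal membrane protein, Lyz2 encodes lysozyme of macrophages and neutrophils, and Ptprc encodes CD45, the phosphatase carried by all leukocytes. PU.1, a transcription factor of the ETS family, acts in myeloid cells through purine-rich sites around the core GGAA.

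To place these genes on the genome, the files' loci were read on mm10. The C1q genes form a cluster on chromosome 4 that spans 18700 bases on the minus strand, with C1qb at chr4:136880145-136886177, C1qc at chr4:136889802-136892914 and C1qa at chr4:136895916-136898844. The loci lie 3624 bases (C1qb to C1qc) and 3001 bases (C1qc to C1qa) apart. Lyz2 lies at chr10:117277541-117282272 (minus strand), Mrc1 at chr2:14229414-14332023 (plus strand) and Cd163 at chr6:124304651-124330535 (plus strand). Cd68 lies at chr11:69664141-69666062 (minus strand), Ptprc at chr1:138062859-138175305 (minus strand) and Emr1 at chr17:57358686-57483529 (plus strand).

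The 250 bases before the start of Lyz2 and Mrc1, the genes that passed the test between ages, and of C1qb and C1qc, neighbours in the C1q cluster, are shown because they share a short ETS-like string. They were taken from RefSeq on GRCm38.p6, the assembly of mm10, and are written 5′ to 3′ on the strand of the gene. Capitals mark the string AGGAAGT or its reverse complement ACTTCCT, which holds the ETS core.
Lyz2, chr10:117282273-117282522 (minus strand): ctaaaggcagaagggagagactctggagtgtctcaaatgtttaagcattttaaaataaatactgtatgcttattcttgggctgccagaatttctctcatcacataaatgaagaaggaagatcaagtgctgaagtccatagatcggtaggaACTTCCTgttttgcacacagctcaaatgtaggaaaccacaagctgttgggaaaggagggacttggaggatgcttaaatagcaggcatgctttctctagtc
Mrc1, chr2:14229164-14229413 (plus strand): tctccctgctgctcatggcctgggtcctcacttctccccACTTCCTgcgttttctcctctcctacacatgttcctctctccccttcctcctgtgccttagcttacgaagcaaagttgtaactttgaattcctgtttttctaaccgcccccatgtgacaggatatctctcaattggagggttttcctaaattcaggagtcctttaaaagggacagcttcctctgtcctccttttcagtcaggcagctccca
C1qb, chr4:136886201-136886450 (minus strand): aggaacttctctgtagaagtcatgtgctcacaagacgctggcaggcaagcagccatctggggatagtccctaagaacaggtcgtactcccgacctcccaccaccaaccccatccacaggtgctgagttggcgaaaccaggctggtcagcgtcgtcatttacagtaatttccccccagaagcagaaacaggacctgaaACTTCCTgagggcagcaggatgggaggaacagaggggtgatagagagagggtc
C1qc, chr4:136892915-136893164 (minus strand): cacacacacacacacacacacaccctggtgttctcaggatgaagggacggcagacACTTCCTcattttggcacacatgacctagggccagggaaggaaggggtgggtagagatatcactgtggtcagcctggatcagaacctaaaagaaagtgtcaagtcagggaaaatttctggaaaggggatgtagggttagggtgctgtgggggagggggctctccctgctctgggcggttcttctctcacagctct

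Windows were found for 7 of the 10 genes (8 windows, as Ptprc has 2), among 32851 windows of this length. AGGAAGT, which was picked after these sequences were seen, was present in either direction in the windows of 5 genes (C1qb, C1qc, Lyz2, Mrc1 and Ptprc) and in 7.69% of all windows. The longer PU.1 core GAGGAAGT was present for C1qc alone, against 2.44% of all windows. Its first part, GAGGAA, was present for C1qb, C1qc, Cd68, Mrc1 and Ptprc, against 23.3% of all windows. The E-box CAGCTG, searched as a control for a muscle factor's site, was present for Cd68, against 13% of all windows. These strings overlap one another, and a match describes the letters only. No match separated Lyz2 and Mrc1 from the other genes: both windows held AGGAAGT, and so did those of C1qb and C1qc.

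The 10 genes were weakly expressed in all 4 samples, and muscle transcripts dominated. Tnnc2, the calcium-binding troponin of fast fibres, stood at 3469 to 35474 FPKM, whereas no leukocyte marker among the 10 exceeded 22.2 FPKM. Lyz2 was the highest of the 10 and C1qb the next in every sample. At the low end, Ptprc and Emr1 stayed below 1 FPKM everywhere, with Ptprc between 0.0825 and 0.509 FPKM and Emr1 between 0.0367 and 0.558 FPKM. Old 1 and Old 2 gave the same order of the 10 genes: Lyz2, C1qb, C1qc, C1qa, Cd163, Mrc1, Csf1r, Cd68, Ptprc, Emr1. In Young 1, Mrc1 moved up to the third place, ahead of C1qa and C1qc, and in Young 2 it stood in the fifth, ahead of Cd163. Because FPKM are scaled by length, these are comparisons of level between genes.

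**Figure D1:**
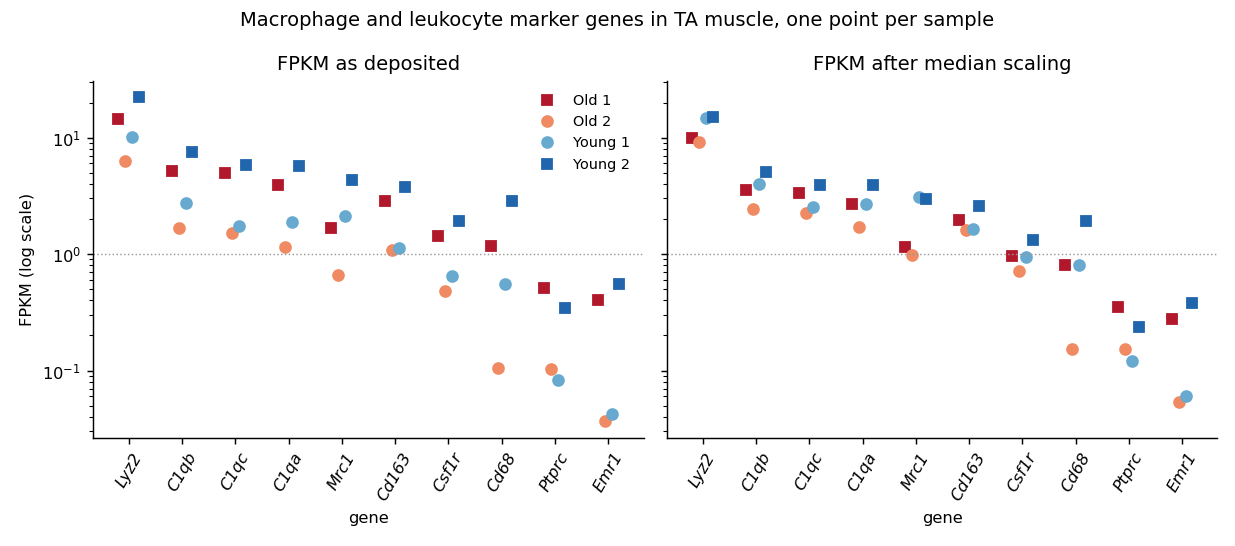
FPKM of the 10 marker genes on a log axis in Old 1, Old 2, Young 1 and Young 2, one point per sample, as deposited and after division by a scaling factor per sample; the dotted line marks 1 FPKM. As deposited, the samples of an age lie apart for every gene; after scaling, both Old points lie below both Young points for Lyz2, C1qb, C1qa and Mrc1.

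A factor separated the samples of either age, and this sets how the ages can be compared. Old 1 exceeded Old 2 for each of the 10 genes, by 2.31-fold (Lyz2) to 11.3-fold (Cd68), with a median of 3.18-fold. Young 2 exceeded Young 1 by 2.03-fold (Mrc1) to 13.3-fold (Emr1), with a median of 3.18-fold. Across all genes the factor grew as the level fell: the median of Old 1 over Old 2 was 1.98-fold at 10 to 30 FPKM, 2.68-fold at 1 to 3 FPKM and 8.26-fold at 0.1 to 0.3 FPKM. Young 2 over Young 1 followed the same course, with medians of 1.96-fold, 2.59-fold and 6.86-fold. At 0.3 to 1 FPKM, where Cd68 and Csf1r lie, the medians were 4.28-fold for Old 1 over Old 2 and 4.01-fold for Young 2 over Young 1. Cd68 lay above both medians (11.3-fold and 5.11-fold) and Csf1r below both (2.94-fold and 2.98-fold).

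**Figure D2:**
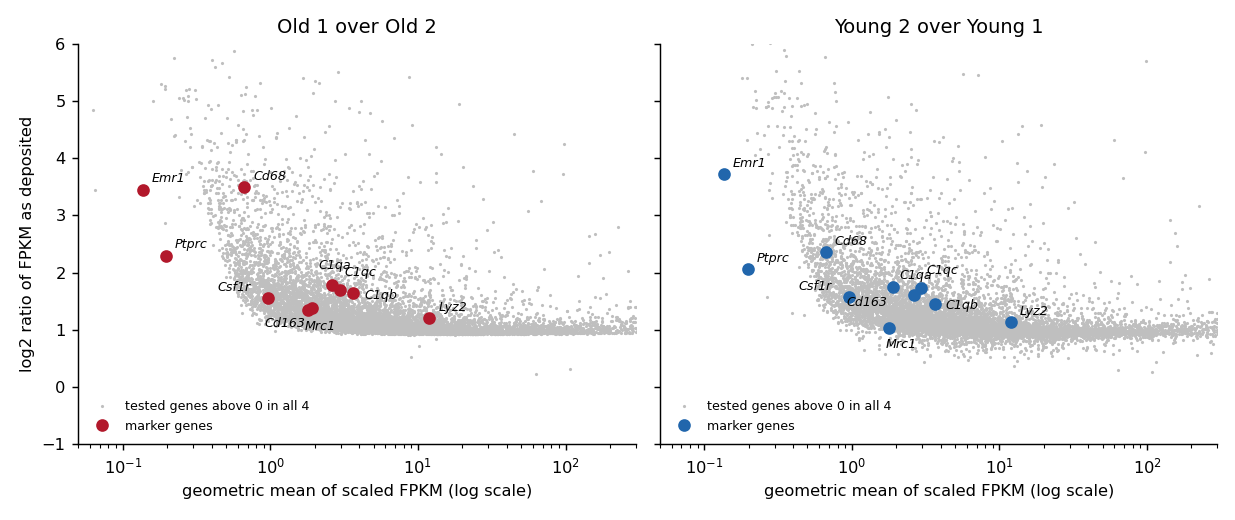
The log2 ratio between the samples of one age, Old 1 over Old 2 on the left and Young 2 over Young 1 on the right, against the geometric mean of scaled FPKM on a log axis, with axes limited to the range shown. Grey points are tested genes above 0 in all 4 samples and coloured points are the 10 marker genes, which follow the rise of the factor toward low levels.

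Ages were therefore compared in 2 ways. In the pairs of like scale, Old 1 was set against Young 2 and Old 2 against Young 1, with no scaling. In the test across all genes, each sample was divided by a median factor (1.46 for Old 1, 0.680 for Old 2, 0.689 for Young 1 and 1.47 for Young 2), and limma was run on log2(scaled FPKM + 1). A fold change on this scale understates the change of low genes. At 10 to 30 FPKM, where Lyz2 lies, the spread of log2 ratios across genes (robust SD) was 0.06 between samples of either age and 0.39 between ages. At 1 to 3 FPKM, where C1qa, C1qc, Mrc1 and Cd163 lie, it was 0.34 within ages against 0.46 and 0.53 in the pairs between ages, so low markers were compared with less precision. Depth is unknown because FPKM hold no counts, and the close match of the samples within an age means that 1 library measured repeatedly at each age cannot be told apart from separate samples.

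Most of the marker genes were lower in old muscles, by a modest factor. Of the 10 genes, 9 were lower in Old in both pairs of like scale, against 48.3% of the 10639 genes above 0 in all samples. The exception was Ptprc, which was higher in Old in both pairs, as were 44.8% of all genes. The median ratio of Old to Young over the 10 genes was 0.706 for Old 1 over Young 2 and 0.681 for Old 2 over Young 1. Lyz2, Mrc1 and Cd68 were at least 1.5-fold lower in both pairs (3 of 10, against 10.3% of all genes), and no marker was at least 1.5-fold higher in both (against 7.57%). The summed FPKM of the 10 genes was 36.6 in Old 1 and 13.1 in Old 2, against 21.1 in Young 1 and 55.0 in Young 2. In bulk muscle, a change in the number of cells that make these RNAs and a change in the RNA per cell cannot be told apart. Which cells made them was not tested.

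**Figure D3:**
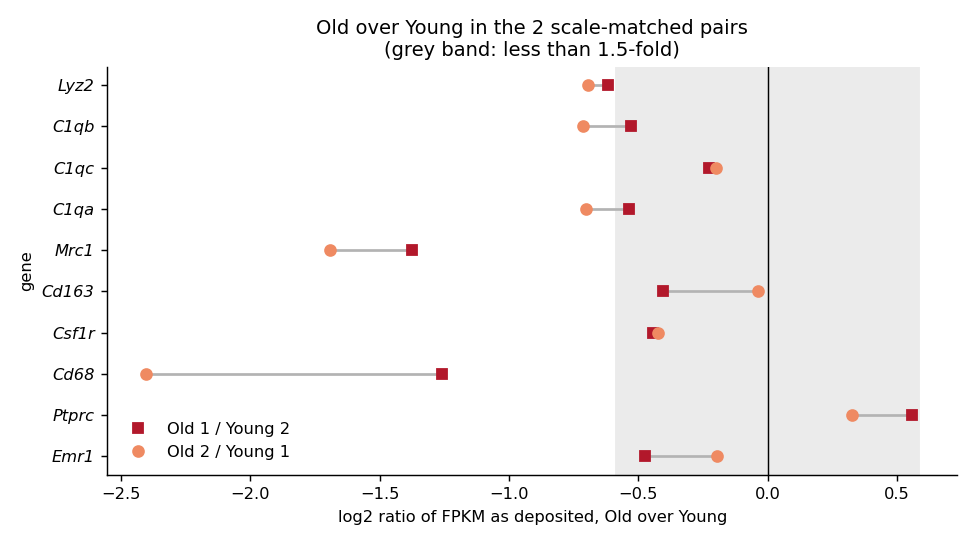
The log2 ratio of deposited FPKM, Old over Young, for each of the 10 marker genes in both pairs of like scale (squares, Old 1 over Young 2; circles, Old 2 over Young 1), with a grey band for changes under 1.5-fold. Both ratios lie left of 0 for 9 genes, and Lyz2, Mrc1 and Cd68 lie left of the band in both pairs.

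In the test across all genes, Lyz2 and Mrc1 fell with age and no marker rose. Of 10266 genes tested by limma with Benjamini-Hochberg adjustment, 5.61% were higher and 7.94% were lower in Old at an adjusted p under 0.05. Of the 8 markers with enough signal to be tested, 0 were higher, 2 were lower, and 6 did not pass, with adjusted p in limma from 0.215 (C1qb) to 0.818 (C1qc). At an unadjusted p under 0.05, the same 2 of 8 passed, while 1812 of the 10266 tested genes were lower and 1666 were higher. Ptprc and Emr1 were below the filter of at least 1 FPKM in at least 2 samples. All 8 log2 fold changes were below 0, with a median of -0.45, while the median over all tested genes was -0.01. The median of the markers was -0.64 without Old 1, -0.63 without Young 1, -0.23 without Old 2 and -0.27 without Young 2, with C1qc above 0 in both of the last settings and Cd163 above 0 in the last. After scaling, both Old values lay below both Young values for 4 of the 10 genes, Lyz2, C1qb, C1qa and Mrc1, against 28.3% of the genes above 0 in all samples. The other 6 overlapped, and no marker had both Old values above both Young values (27.6% of genes did). With 2 samples against 2, the smallest p of an exact permutation test is 0.333, so that test cannot reach 0.05 for a single gene, and single genes were judged by limma, which pools the spread across genes.

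Mrc1, the mannose receptor that takes up glycoproteins and pathogens, showed the lowest log2 fold change of the 8 tested markers. Cd68 was lower with a pseudocount of 0.1 (-1.49 against -1.44 for Mrc1) and without Young 1 (-1.09 against -0.99). The FPKM of Mrc1 was 1.68 in Old 1 and 0.663 in Old 2, against 2.14 in Young 1 and 4.36 in Young 2. Mrc1 was the only marker whose deposited values did not overlap: both Old samples lay below both Young samples before any scaling. The share of all genes without overlap as deposited was not computed, so how unusual this is remains unknown. The Mrc1 level in Young 2 was 2.60-fold that in Old 1, and the level in Young 1 was 3.23-fold that in Old 2. Its scaled FPKM was 1.15 and 0.976 in Old and 3.11 and 2.96 in Young. The log2 fold change was -0.97 (SE 0.10; limma, adjusted p = 0.0291), at percentile 2.14 of all tested genes. Mir511, a microRNA gene at the same locus, was listed at 0 in all 4 samples.

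Lyz2, the lysozyme gene, is read with the most precision because it is the highest of the 10. Its FPKM was 14.5 in Old 1 and 6.27 in Old 2, against 10.1 in Young 1 and 22.2 in Young 2. After scaling, the Old samples (9.89 and 9.22) lay below the Young samples (14.7 and 15.1) without overlap. Lyz2 was 34.8% lower in Old 1 than in Young 2 and 38.2% lower in Old 2 than in Young 1. The log2 fold change was -0.59 (SE 0.06; limma, adjusted p = 0.0289). Lyz1, a near-identical neighbouring gene, can share reads with Lyz2. Lyz1 stood at 2.84, 0.735, 1.31 and 4.23 FPKM in Old 1, Old 2, Young 1 and Young 2, with ratios of 0.671 and 0.563 in the pairs and a log2 fold change of -0.44 (SE 0.26; limma, adjusted p = 0.375).

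The calls of Lyz2 and Mrc1 rested on the scaling and on particular samples. With values as deposited 0 of 8 markers passed (0.175% of all genes were higher and 0.127% lower), and likewise with no filter (0.72% and 1.28%). Because the samples of an age differ by a factor, the first of these fits has little power. Adjusted p in limma was 1.00 for both with values as deposited, 0.0689 and 0.170 with quantile normalization, and 0.0511 and 0.0721 with no filter on low values (Lyz2 and Mrc1, in that order). Without Old 2 it was 0.251 and 0.247, and without Young 1 it was 0.161 and 0.229, whereas both genes passed without Old 1 or without Young 2. Lyz2 also failed without the trend (0.0558) and Mrc1 with cyclic loess normalization (0.0507).

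The C1q chains, which are secreted together as one protein, were lower in Old in both pairs but did not pass the test. C1qb stood at 5.20 FPKM in Old 1 and 1.67 in Old 2, against 2.73 in Young 1 and 7.51 in Young 2, and its log2 fold change was -0.47 (SE 0.20; limma, adjusted p = 0.215). C1qa stood at 3.95, 1.15, 1.87 and 5.72 FPKM in the same order, and its log2 fold change was -0.43 (SE 0.24; limma, adjusted p = 0.333). For both genes the scaled values of Old lay below those of Young, for C1qa only just (2.70 in Old 1 against 2.72 in Young 1), and the ratios in the pairs were close to each other: 0.693 and 0.610 for C1qb, and 0.690 and 0.615 for C1qa. C1qc, which lies between them in the cluster, stood at 4.92 FPKM in Old 1 and 1.52 in Old 2, against 1.75 in Young 1 and 5.76 in Young 2. Its ratios were nearer to 1, at 0.855 and 0.872, and its log2 fold change was -0.15 (SE 0.25; limma, adjusted p = 0.818). The summed FPKM of the chains was 14.1 in Old 1 and 4.34 in Old 2, against 6.35 in Young 1 and 19.0 in Young 2, with ratios of 0.741 and 0.684.

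Shares within a sample need no scaling between samples, although they still carry the factor that varies with level. C1qc made up 35.0% of the C1q sum in Old 1 and 35.1% in Old 2, against 27.5% in Young 1 and 30.3% in Young 2. C1qb made up 37.0% and 38.5% in Old and 43.1% and 39.5% in Young. The ratio of C1qc to C1qa was 1.25 and 1.32 in Old and 0.933 and 1.01 in Young, without overlap. Mrc1 made up 4.59% and 5.06% of the sum of the 10 genes in Old, against 10.2% and 7.92% in Young. Among the scavenger receptors, the ratio of Mrc1 to Cd163 was 0.586 and 0.606 in Old and 1.91 and 1.15 in Young. Mrc1 over Csf1r was 1.18 and 1.37 in Old and 3.30 and 2.26 in Young. Lyz2 over Mrc1 ran the other way, at 8.62 and 9.45 in Old and 4.74 and 5.09 in Young. Mrc1 was lower in both Old samples relative to 7 of its 9 partners, and relative to 87.1% of all other genes above 0. Of the 45 ratios between the 10 genes, 27 did not overlap between ages, and those described here were chosen from them after their values were seen. Others overlapped, such as C1qb over C1qa (1.32 and 1.45 in Old, 1.46 and 1.31 in Young) and C1qc over Cd163 (1.72 and 1.39 in Old, 1.56 and 1.52 in Young). No test was run on these ratios, and the share of all gene pairs without overlap was not computed. Among single genes above 0 in all samples, after scaling, 28.3% had both Old values below both Young values and 27.6% had both above. The 27 of 45 is therefore not read as a result about these markers.

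**Figure D4:**
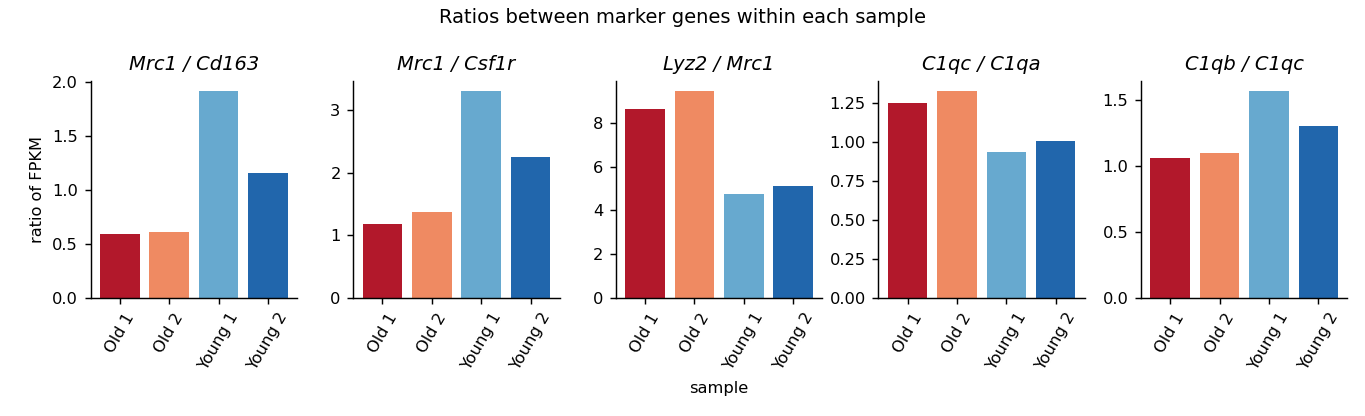
Ratios of FPKM between marker genes within each sample (bars from 0, one per sample): Mrc1 over Cd163, Mrc1 over Csf1r, Lyz2 over Mrc1, C1qc over C1qa and C1qb over C1qc. These 5 were chosen among the 27 of 45 ratios that did not overlap, so in each panel both Old bars lie on the same side of both Young bars, for example 0.586 and 0.606 against 1.91 and 1.15 for Mrc1 over Cd163.

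The remaining receptors and antigens of macrophages did not pass the test. Cd163, the receptor for hemoglobin bound to haptoglobin, stood at 2.86 FPKM in Old 1 and 1.09 in Old 2, against 1.12 in Young 1 and 3.78 in Young 2. Old 2 and Young 1 were alike for Cd163 (ratio 0.976) while Old 1 was 24.4% lower than Young 2, and the log2 fold change was -0.14 (SE 0.20; limma, adjusted p = 0.764). Csf1r stood at 1.42 FPKM in Old 1 and 0.483 in Old 2, against 0.648 in Young 1 and 1.93 in Young 2. Its ratios of 0.735 and 0.745 nearly coincided, and its log2 fold change was -0.21 (SE 0.21; limma, adjusted p = 0.631). Cd68 stood at 1.18 FPKM in Old 1 and 0.105 in Old 2, against 0.555 in Young 1 and 2.83 in Young 2. Its ratios of 0.418 and 0.189 were the lowest but for that of Mrc1 in the first pair, yet the samples of an age lay 11.3-fold and 5.11-fold apart. The log2 fold change of Cd68 was -0.67 with an SE of 0.42 (limma, adjusted p = 0.388), the largest SE of the tested markers.

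The least expressed markers pointed different ways. Ptprc, which marks all leukocytes, stood at 0.509 FPKM in Old 1 and 0.103 in Old 2, against 0.0825 in Young 1 and 0.346 in Young 2, with ratios of 1.47 and 1.25. With no filter its log2 fold change was 0.08 (SE 0.12; limma, adjusted p = 0.978). Relative to the other markers, Ptprc was higher in both Old samples for 8 of 9 partners, and relative to 21.3% of all other genes above 0. Emr1, the F4/80 gene, stood at 0.401 FPKM in Old 1 and 0.0367 in Old 2, against 0.0420 in Young 1 and 0.558 in Young 2, with ratios of 0.720 and 0.872. With no filter its log2 fold change was -0.06 (SE 0.19; limma, adjusted p = 1.00). Both genes overlapped between ages.

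To see whether other genes of macrophages and leukocytes moved as well, 13 further lists of 256 genes were examined. Of these, 218 had a value and 80 were tested, 4 were higher (5%) and 5 were lower (6.25%), close to the shares of all tested genes. The median log2 fold change was -0.04, and 45 of 80 lay below 0. Of the 99 listed genes above 0 in all samples, 49 were lower in Old in both pairs. The lists of complement, colony-stimulating factors and chemokines (16, 6 and 7 tested genes) are defined by function, not by cell type. They held 2, 0 and 1 of the higher calls, in that order, and 0 of the lower ones. Over all 13 lists, values in Old were about as often lower as higher. This balance does not describe leukocyte genes alone, and no share was computed without these functional groups. Of the genes called in these lists and in those of other cell types, 0 passed without Old 2 or without Young 1.

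General macrophage genes held 3 of the lower calls. Of 13 tested, 0 were higher and 3 were lower, with a median log2 fold change of -0.15. Irf5, a factor that drives inflammatory cytokine genes, stood at 3.95, 1.46, 7.54 and 14.7 FPKM in Old 1, Old 2, Young 1 and Young 2, and fell by 1.75 on the log2 scale (SE 0.11; limma, adjusted p = 0.0227). On this scale, which understates low genes, the change was larger than that of any tested marker. In the pairs, the ratios of Irf5 were 0.268 and 0.194, against 0.418 and 0.189 for Cd68. Grn, which encodes the lysosomal growth factor progranulin, was 10.3, 4.97, 7.15 and 14.5 FPKM and fell by 0.44 (SE 0.06; limma, adjusted p = 0.0350). In contrast, Tyrobp and Fcer1g, adaptors of myeloid receptors, had log2 fold changes of -0.01 and 0.02, with pair ratios of 0.973 and 0.998 for Tyrobp and 0.959 and 1.14 for Fcer1g (named after their values were seen).

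Among genes of tissue-resident macrophages and scavenger receptors, 1 of 8 tested was lower and 0 were higher, with a median of -0.03. Stab1, a scavenger receptor also made by endothelial cells, was 2.53 and 1.17 FPKM in Old 1 and Old 2 and 2.11 and 4.34 FPKM in Young 1 and Young 2. It fell by 0.55 on the log2 scale (SE 0.07; limma, adjusted p = 0.0380). The most expressed genes of the list, Sepp1 (selenoprotein P) and Cbr2 (a carbonyl reductase), had log2 fold changes of 0.32 (limma, adjusted p = 0.144) and 0.20 (limma, adjusted p = 0.318). Of genes of newly arrived monocytes, 0 of 5 passed in limma in either direction, adjusted or not, with a median of -0.20, and Fabp5, S100a4 and Fn1 had log2 fold changes of -0.23, -0.54 and -0.20. Among the ligands and receptors of colony-stimulating factors, 0 of 6 passed in limma. At an unadjusted p under 0.05, 1 was lower, as were 1812 of all 10266 tested genes. Csf1, the ligand of Csf1r, had pair ratios of 1.24 and 1.26 and a log2 fold change of 0.21 (limma, adjusted p = 0.309), while Kitl and Flt3l had -0.31 and -0.05. Of pan-leukocyte genes, 0 of 7 tested passed in limma, adjusted or not, with a median of -0.13, and Arhgdib, Laptm5 and the locus Evi2a,Evi2b had log2 fold changes of -0.21, -0.32 and 0.11.

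Genes of complement beyond C1q, of antigen presentation and of chemokines held the 4 calls of the 13 lists that were higher in Old. Of 16 complement genes tested, 2 were higher and 0 were lower. C3, the central component on which all pathways converge, was 7.87, 3.94, 2.56 and 5.02 FPKM in Old 1, Old 2, Young 1 and Young 2 and rose by 0.53 on the log2 scale (SE 0.07; limma, adjusted p = 0.0379). Cd55, which shields host cells from complement, was 48.7, 22.5, 14.1 and 29.9 FPKM and rose by 0.68 (SE 0.05; limma, adjusted p = 0.0240). Cd74, the invariant chain of MHC class II (listed with Mir5107), rose by 0.40 (SE 0.05; limma, adjusted p = 0.0346), alone among 7 tested genes of dendritic cells and MHC class II. H2-Aa and H2-Ab1, class II chains, had log2 fold changes of 0.29 and 0.42 and did not pass. Ccl11 (eotaxin), which attracts eosinophils, rose by 0.34 (SE 0.05; limma, adjusted p = 0.0434), 1 of 7 chemokines tested, while Cxcl12 and Cxcl14 had 0.06 and -0.07.

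Markers of other cells that muscle can hold were read beside these results. Lyz2 is also made by neutrophils, and 11 of 16 neutrophil genes had a value. Of these, 4 were tested and 0 passed in limma, with a median log2 fold change of -1.77. At an unadjusted p under 0.05, 3 of the 4 were lower, against 1812 of all 10266 tested genes. S100a8, a calcium-binding protein abundant in neutrophils, was 2.59 FPKM in Old 1 and 0 in Old 2, against 4.46 in Young 1 and 16.6 in Young 2 (limma, adjusted p = 0.0875). S100a9, its partner, was 1.62, 0, 3.48 and 8.37 FPKM in the same order (limma, adjusted p = 0.0630). The summed scaled FPKM of the neutrophil list was 6.59 and 0.0328 in Old and 13.5 and 29.4 in Young. It was lower in both Old samples, as Lyz2 was, and its part in the Lyz2 result was not tested.

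Lymphocyte genes were barely detected. Of 18 T cell genes with a value, 1 was tested (Cd247, log2 fold change 0.74; limma, adjusted p = 0.251), and 14 were listed at 0 in both Old 2 and Young 1. In Old 1, 15 of the 18 were higher than in Young 2 and 3 were lower. Of 13 B cell genes, 1 was tested (Ebf1, 0.09) and 8 were at 0 in both Old 2 and Young 1. Of the 13, 11 were higher in Old 1 than in Young 2 and 2 were lower. These counts set 1 sample against 1 at low levels, and the share of all genes higher in Old 1 than in Young 2 was not computed. They are therefore not read as a result about lymphocytes. All 12 genes of natural killer cells with a value were at 0 in both Old 2 and Young 1. Ptprc, which lymphocytes carry too, was higher in Old in both pairs, and the part of lymphocytes in its level was not tested. Of mast cell and eosinophil genes, 1 of 5 tested was lower (Gata2, a transcription factor, log2 fold change -0.61; limma, adjusted p = 0.0410) and 0 were higher. Gata2 was the only one below 0: the list median was 0.33, 4 of the 5 were higher in Old in both pairs, and the mast cell protease genes Tpsb2 and Mcpt4 had log2 fold changes of 0.33 and 0.43.

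**Figure D5:**
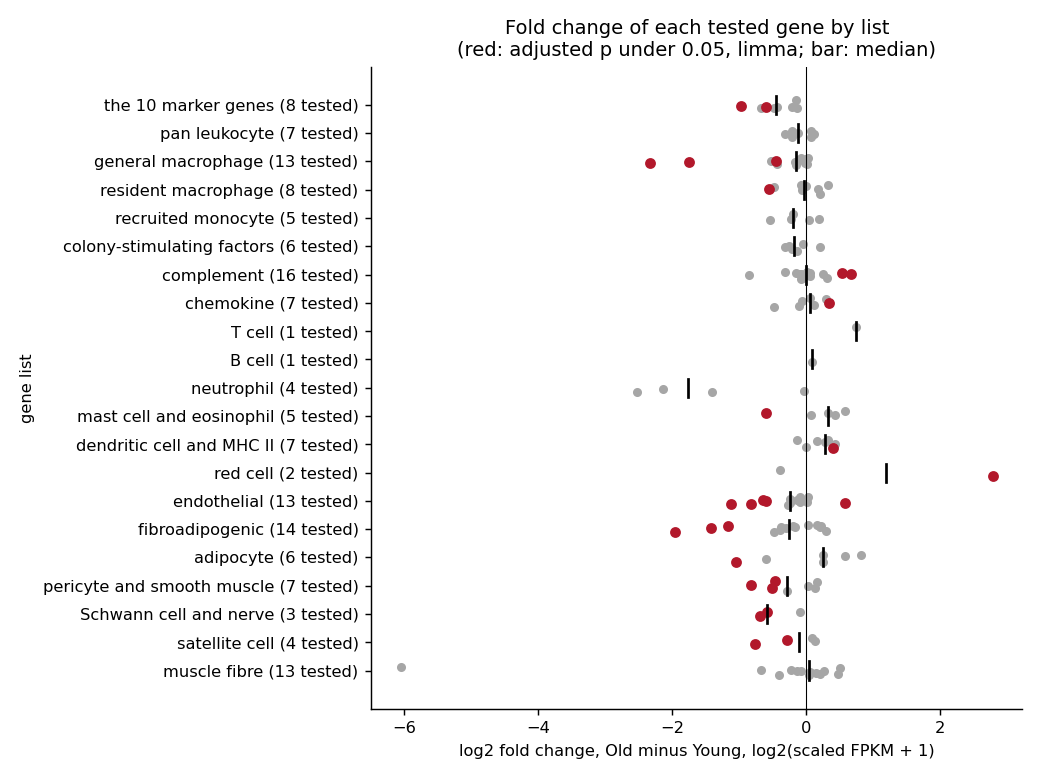
Log2 fold change, Old minus Young, of each tested gene on the log2(scaled FPKM + 1) scale, by gene list, with red points for genes past an adjusted p of 0.05 in limma and a bar at the median of each list. The median of the marker genes lies at -0.45 and that of all tested general macrophage genes at -0.15.

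Some genes of red cells, vessels and connective tissue also differed in RNA level between the ages. Hba-a1,Hba-a2, the locus of alpha globin, was 607, 277, 39.5 and 88.6 FPKM in Old 1, Old 2, Young 1 and Young 2 and rose by 2.79 on the log2 scale (SE 0.06; limma, adjusted p = 0.0171). Tspan33, the only other red cell gene tested, had pair ratios of 0.658 and 0.595 and a log2 fold change of -0.39 (limma, adjusted p = 0.336). Alpha globin RNA was thus higher in Old while most markers were lower, and the part of blood in their values was not tested. Among 62 tested genes of 8 non-leukocyte lists, 15 were lower (24.2%) and 2 were higher, with a median of -0.15. The lower genes included the endothelial genes Ly6c1, Flt1, Eng and Tie1, the fibroblast genes Col1a1, Col3a1 and Ly6a, and the mural cell genes Notch3, Acta2 and Pdgfrb. Col1a1, a chain of collagen I, fell by 1.96 and Ly6c1 fell by 1.12 on the log2 scale, which understates the change of low genes. In the pairs, Col1a1 (ratios 0.230 and 0.235) fell further than Mrc1 (0.385 and 0.310). Ly6c1 (0.456 and 0.446) fell less than Mrc1 but further than Lyz2 (0.652 and 0.618). Within the same lists other genes did not fall: Cldn5, a tight junction gene of endothelium, rose by 0.57 (SE 0.08; limma, adjusted p = 0.0423), while the endothelial receptor genes Kdr and Tek had log2 fold changes of 0.03 and 0.01 (both named after their values were seen). The fibroblast genes Dcn and Gsn had 0.30 and 0.21 and did not pass. The part of these cells in the marker values was not tested.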

How the data were processed

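mRNA-seq of muscle was analysed in 4 samples, 2 per age, grouped by the age and title in the labels. The authors trimmed reads, removed duplicates, aligned with TopHat2 (2.0.10) to mm10 guided by RefSeq, and deposited FPKM per locus from Cufflinks for each sample. Their Cuffdiff (2.1.1) comparison needs aligned reads and was not repeated.

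Each sample's values ended within chromosome 7 or 8 in text order, and 1 incomplete line per sample was left out, as were 542 loci without a value in all 4 samples. The 20605 loci kept were summed by symbol to 20340 labels. Depth is unknown, since no whole-read steps were seen, so no count test or counting interval is given.

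Ages were compared with limma 3.58.1 in R 4.3.3 (trend, two-sided, Benjamini-Hochberg over all tested genes, adjusted p under 0.05) on log2(FPKM / median factor + 1), for genes that reached 1 FPKM in 2 or more samples. The pseudocount was 1 FPKM. Cuffdiff also scales libraries. The median scaling and the pairs of like scale were chosen with earlier results of these data known, in which a factor separated the samples of an age. On simulated data for Old against Young (9746 genes, noise SD 0.1), the fit recovered 100 of 100 genes changed by a log2 of 1 and 100 of 100 changed by a log2 of 2, with 17 false calls. Without scaling it recovered 0 of 100 at either size, so calls on values as deposited have little power. This noise is below the spread seen at the levels of most markers. The simulated factor of a sample was the same at every level, whereas the factor seen here grew as the level fell. Changed genes were drawn only from those above a minimum mean level, so recovery of the lowest markers was not shown.

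The 10 markers and all lists were chosen with earlier results of these data known. Other genes were named by a rule: the 3 tested genes with the highest mean in a list and up to 6 called ones, although not all of them are described. Plots used matplotlib 3.10.9, and other steps used scipy 1.17.1, numpy 2.4.6 and pandas 2.3.3 under Python 3.11.15. Alternatives were other scalings, pseudocounts, filters and folds, no trend, the highest locus per symbol, blocks of pairs and leaving out each sample. Promoters of C1qa and Emr1 and the sequence of Csf1r were not analysed here, and some genes that met the rule are not reported here.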

Additional observations from a re-analysis of the deposited data

Results flagged for a closer look

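Hbb-b1, a beta globin gene of red cells, had a value in Old 2 and Young 1 alone and was therefore outside every test. It stood at 26.4 FPKM in Old 2 and 3.87 FPKM in Young 1, a ratio of 6.84, close to the ratio of 7.02 of the alpha globin locus Hba-a1,Hba-a2 in the same pair. It drew attention as a signal in values that no comparison used, and it was not tested.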

How the results depend on the processing

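Scaling, blocks of pairs and single samples all moved the counts. Over all genes, with higher before lower in Old, 576 and 815 passed. The counts were 18 and 13 with values as deposited, 89 and 136 with quantile normalization, 114 and 202 with no filter, 103 and 181 with no trend, and 1222 and 1302 where every sample had to reach 1 FPKM. Lower markers numbered 0, 0, 0, 1 and 1 in these settings, against 2 in the reported fit. In the last of these settings Mrc1 was not tested, as it stood at 0.663 FPKM in Old 2. Cyclic loess normalization, which was chosen after seeing the data, left 1 lower marker. Genes of the other lists numbered 6 higher and 20 lower, against 0 and 1 as deposited, 2 and 7 with quantile normalization, 2 and 9 with no filter, 2 and 7 with no trend, and 10 higher with cyclic loess. A pseudocount of 0.1 and the highest locus per symbol kept all these counts within 1.5 times, and no marker was called higher in any setting run. At a threshold of 1.2-fold, 6 markers were lower and 1 was higher in both pairs. The share of all genes past 1.2-fold was not computed, so these counts are not read as a result about the markers.

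Same-numbered samples deviated from the mean of their age in opposite directions, with a correlation of -0.903 over 10266 genes. With 2 samples per age, the crossed pairs give the same value with the opposite sign. The value describes which samples deviate alike, and whether the label numbers carry a pairing was not tested. With the replicate number as a block, 24 genes were higher and 21 lower, 0 markers were lower, and 1 gene of the other lists was called in each direction. Pairing by number on scaled values left 1 marker at least 1.5-fold lower, and the share of all genes was not computed for this pairing. With values as deposited and this block, added after seeing the data, 2 genes were higher and 3 lower, with 0 markers and 0 listed genes. With the crossed pairs as a block, 3242 genes were higher and 3503 lower, with 7 markers lower and 28 and 58 listed genes, and with values as deposited 2812 and 3374, 6, and 26 and 53.

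Leaving out 1 sample gave 0 to 619 higher and 1 to 773 lower genes, 0 to 3 lower markers, and 0 to 6 higher and 0 to 21 lower listed genes; the low ends came without Old 2 or without Young 1. The lone sample was assumed to vary like the other age. Log2 fold changes that crossed 0 ranged from -0.41 to 0.086 for C1qc, -0.38 to 0.075 for Cd163, -0.0086 to 0.068 for Abcc9, -3.57 to 3.13 for Cfd, -0.0030 to 0.12 for Cxcl12, -0.66 to 1.29 for Evi2a,Evi2b, -0.31 to 0.19 for Flt3l, -0.74 to 0.61 for Mylpf, -0.73 to 0.82 for Pvalb, -0.71 to 0.13 for Rgs5, -0.98 to 1.29 for Tnnc2, -0.020 to 0.64 for Tpsb2 and -0.091 to 0.28 for Vcam1. Evi2a,Evi2b was also -0.078 with quantile normalization and -0.51 with a pseudocount of 0.1, and Mylpf was 0.049 with cyclic loess. None of these genes passed the test, and the causes were not tested.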

Other observations

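Lyve1 and Coro1a had values in Old 2 and Young 1 alone. Lyve1, a receptor of resident macrophages and lymphatic vessels, was 0.230 FPKM in Old 2 and 0.499 FPKM in Young 1, a ratio of 0.461. Coro1a, an actin regulator of leukocytes, was 0.559 and 0.383 FPKM, a ratio of 1.46. Neither gene was tested.

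Genes whose scaled profile lay near to the median profile of the 8 tested markers, among 9059 candidates over 4 samples, were Tmem128 (Euclidean distance 0.029 on the log2 scale), Amigo2 (0.031), the Mir702,Plod3 locus (0.032) and Gmpr2 (0.032). Their log2 fold changes ran from -0.39 to -0.35, and none passed the test (limma, adjusted p from 0.308 to 0.396).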
